A study of Mus musculus with 16 samples.

Results

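The 8 genes described here code for proteins of the nuclear envelope and of the machinery that places nuclei in muscle fibres: Syne1, Syne2, Sun1, Sun2, Lmna, Emd, Kif5b and Map7. They were taken by gene symbol from a table of read counts for 29730 genes. All 8 had a row and passed the filter on low counts that left 14960 genes for testing. Messenger RNA of the tibialis anterior, the muscle along the shin that lifts the foot, was sequenced in male C57BL/6N mice aged 7 weeks. The 16 samples formed 4 groups of 4, which were wild-type mice given PBS (WT_PBS), wild-type mice given an antisense oligonucleotide (WT_ASO), Bin1mck-/- mice given PBS (KO_PBS) and Bin1mck-/- mice given the oligonucleotide (KO_ASO). The series title names the oligonucleotide ASO1, gives Dnm2 as the gene it lowers and calls the line a model of recessive centronuclear myopathy. The meaning of "mck" in the name of the line, the part of Bin1 that is deleted, the dose and the schedule were not given in the sources used here, nor was it said whether each sample was 1 mouse, so p values measure the spread between these samples.

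A muscle fibre is a long cell with many nuclei, which lie under its surface in healthy adult muscle and lie in its centre in centronuclear myopathy. Nuclei are held and moved through the LINC complex, in which SUN proteins cross the inner nuclear membrane, bind the lamina on the inside and hold nesprins, the products of the Syne genes, on the outside. Nesprins connect the nucleus to actin, to microtubules and to motors such as kinesin-1. BIN1 is a membrane-bending protein of the muscle triad and DNM2 a membrane-cutting GTPase. Mutations in LMNA, EMD, SYNE1 and SYNE2 are linked to Emery-Dreifuss muscular dystrophy.

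Total counts ran from 27591900 to 40862854 reads per sample. Bin1 measured 9.08% of its WT_PBS mean in KO_PBS and 7.17% in KO_ASO. Dnm2 measured 45.7% of the WT_PBS mean in WT_ASO and 44.1% in KO_ASO. The libraries thus went with their labels for both targeted genes. The muscle markers Acta1, Ckm, Myh4, Myh1, Myh2, Ttn, Mylpf and Tnnt3 were found in every sample. Levels below are CPM, read counts divided by the scaled library size and brought to a common total. Differentially expressed genes (DEGs) were those with an edgeR adjusted p under 0.05 over all genes tested, and these are said to be called.

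Between KO_PBS and WT_PBS, Lmna was higher and Syne2 lower, and the remaining 6 genes were not called. Thus 2 of the 8 genes were DEGs, where 12.6% of all tested genes were. In the higher direction 1 of 8 was called, against 7.43% of all genes, and in the lower direction 1 of 8, against 5.12%. For 3 of the 8 genes, Lmna, Syne2 and Sun2, no KO_PBS sample fell within the WT_PBS range or the reverse, which held for 20.4% of all genes. The median log2 fold change (log2FC) of the 8 genes was 0.15, and that of all tested genes was -0.011.

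The oligonucleotide in knockout mice, KO_ASO vs KO_PBS, gave 1 DEG of 8, Lmna, which was lower, where 3.64% of all genes were called, 2.83% lower and 0.802% higher. Lmna was also the only one of the 8 whose groups did not overlap, against 10.4% of all genes. The median log2FC of the 8 genes was -0.093, and that of all genes 0.010. This comparison and the one before use the same KO_PBS samples. In wild-type mice, WT_ASO vs WT_PBS, edgeR called none of the 8 genes, where 0.00668% of all genes were called. That share was 1 gene, Dnm2, the target of the oligonucleotide. The groups overlapped for every one of the 8, where 3.22% of all genes did not overlap. At an unadjusted p under 0.05 there was 1 of the 8, Syne2, where 6.45% of all genes were below that value, and DESeq2 also called none.

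**Figure D1:**
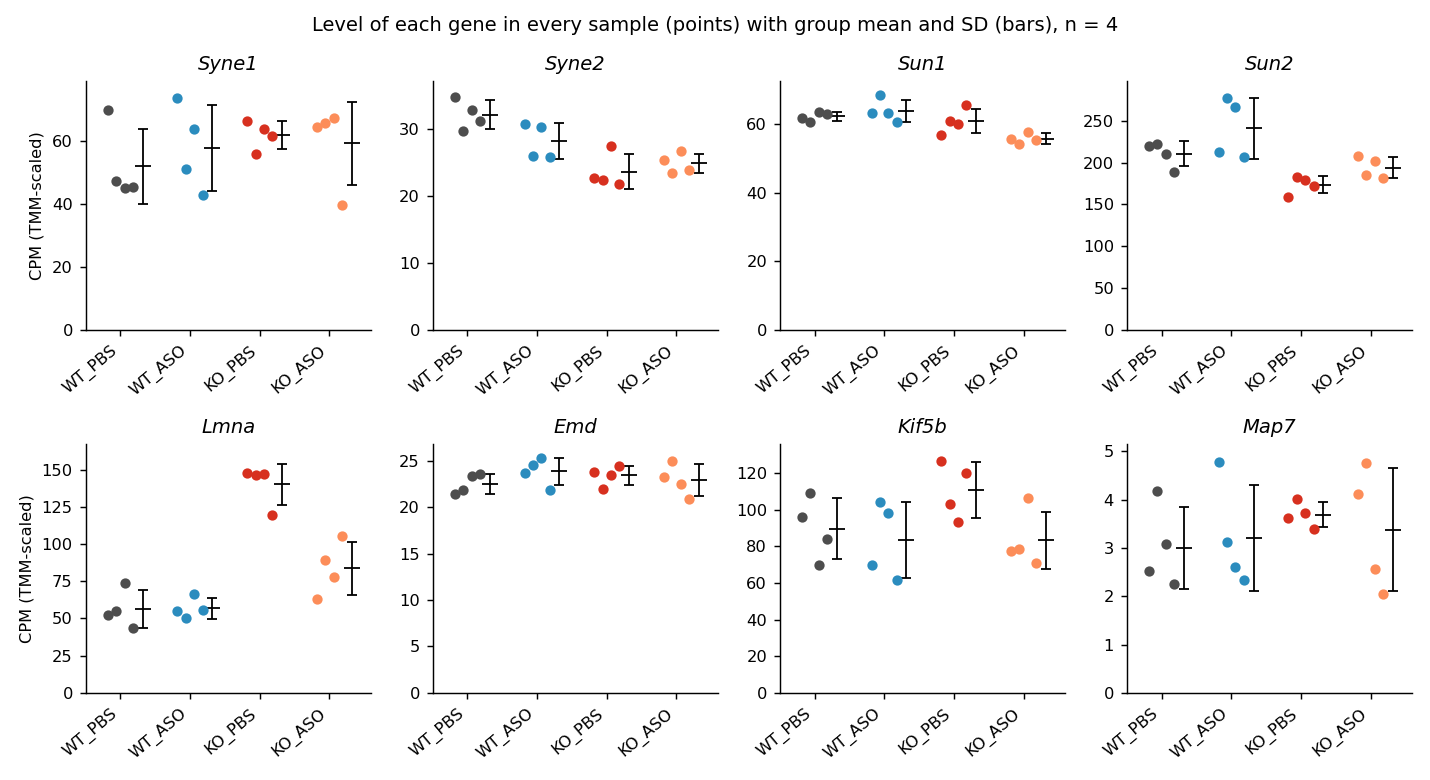
Level of the 8 genes in CPM (vertical axes, from 0) in each of the 16 samples (points), with the mean and SD of each group of 4 (bars beside the points). Lmna stands at 119 to 148 CPM in KO_PBS and at 43.5 to 73.5 CPM in WT_PBS, Syne2 is lower in both knockout groups than in WT_PBS, and the groups of Emd, Kif5b and Map7 overlap.

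Lmna (ENSMUSG00000028063, chromosome 3, 88480147 to 88509956, minus strand, GRCm38) codes for lamins A and C, the filaments of the lamina that give the nucleus its stiffness. It measured 52.6, 55.3, 73.5 and 43.5 CPM in the WT_PBS samples, 54.7, 50.2, 66.3 and 55.6 CPM in WT_ASO, 147.7, 146.4, 147.2 and 119.4 CPM in KO_PBS, and 63.0, 89.3, 78.1 and 105.2 CPM in KO_ASO. All KO_PBS samples lay above all samples of the other 3 groups, and KO_ASO reached from within the wild-type range to above it. The KO_PBS mean was 249% of the WT_PBS mean and the KO_ASO mean 149%. KO_PBS exceeded WT_PBS by a log2FC of 1.32 (standard error, SE, 0.16, edgeR adjusted p = 8.27e-05). A permutation test (exact, two-sided) returned p = 0.0286, which is the smallest value possible with 4 samples against 4. For KO_ASO vs KO_PBS it was -0.74 (SE 0.16, edgeR adjusted p = 0.0180, exact permutation p = 0.0286).

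The higher Lmna level in KO_PBS was called under all 22 alternatives run, at edgeR or DESeq2 adjusted p values up to 0.000647 and log2FC from 1.21 to 1.47. The lower level in KO_ASO kept its direction under all 22 alternatives, with log2FC from -0.87 to -0.62, but its call depended on single samples: it was not called without KO_PBS replicate 1 (edgeR adjusted p = 0.0608), KO_ASO replicate 1 (0.0654) or KO_ASO replicate 3 (0.0610), with log2FC of -0.72, -0.62 and -0.71. In wild-type mice the oligonucleotide gave a log2FC of 0.01 (SE 0.16), an interval of 2 SE on either side from -0.31 to 0.33. The difference between the oligonucleotide effects in the 2 genotypes, the interaction, was -0.75 (SE 0.23) and was not called (edgeR adjusted p = 0.156). None of the 8 genes was called in the interaction by edgeR, where 0.575% of all genes were, and 1 of the 8, Lmna, had an unadjusted p under 0.05 (0.00415), a share close to the 12.7% of all genes below that value. KO_ASO and WT_PBS, which differ in genotype and treatment, were 0.58 apart for Lmna on the log2 scale (SE 0.16, edgeR adjusted p = 0.289), with samples that overlapped.

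The counts are summed over a gene, so lamin A and lamin C could not be told apart. The B-type lamins Lmnb1 and Lmnb2, which stay anchored to the inner membrane, were rarer. In WT_PBS, Lmnb1 stood at 6.51 ± 0.899 CPM and Lmnb2 at 5.01 ± 0.568 CPM (SD, n = 4). In KO_PBS they stood at 5.76 ± 0.649 and 5.46 ± 0.943 CPM, and in KO_ASO at 6.66 ± 1.24 and 5.86 ± 2.74 CPM (SD, n = 4). Neither was called between KO_PBS and WT_PBS (log2FC -0.17, SE 0.14, and 0.12, SE 0.23) or between KO_ASO and KO_PBS (0.21, SE 0.14, and 0.10, SE 0.23). The ratio of Lmna to Lmnb1 plus Lmnb2 within a sample was 4.04, 4.74, 6.40 and 4.22 in WT_PBS, 4.86, 4.56, 6.44 and 4.88 in WT_ASO, 12.2, 13.4, 11.5 and 12.6 in KO_PBS, and 6.61, 8.07, 6.69 and 5.76 in KO_ASO. KO_PBS lay above every other sample, and the highest WT_PBS and WT_ASO values lay within the KO_ASO range. The lowest KO_ASO ratio, 5.76, came from replicate 4, which had the highest Lmna level of its group, 105.2 CPM. Its Lmnb1 and Lmnb2 levels, 8.327 and 9.825 CPM, were also the highest of its group. The ratio differed by 1.38 on the log2 scale between KO_PBS and WT_PBS and by -0.88 between KO_ASO and KO_PBS. Both exact permutation tests gave p = 0.0286, the smallest value possible with 4 samples against 4. It became 0.0514 after Benjamini-Hochberg adjustment over the 9 ratio tests made, so that neither passed. Because of that smallest value, groups without any overlap can miss the threshold, and no conclusion is drawn from the adjusted values.

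**Figure D2:**
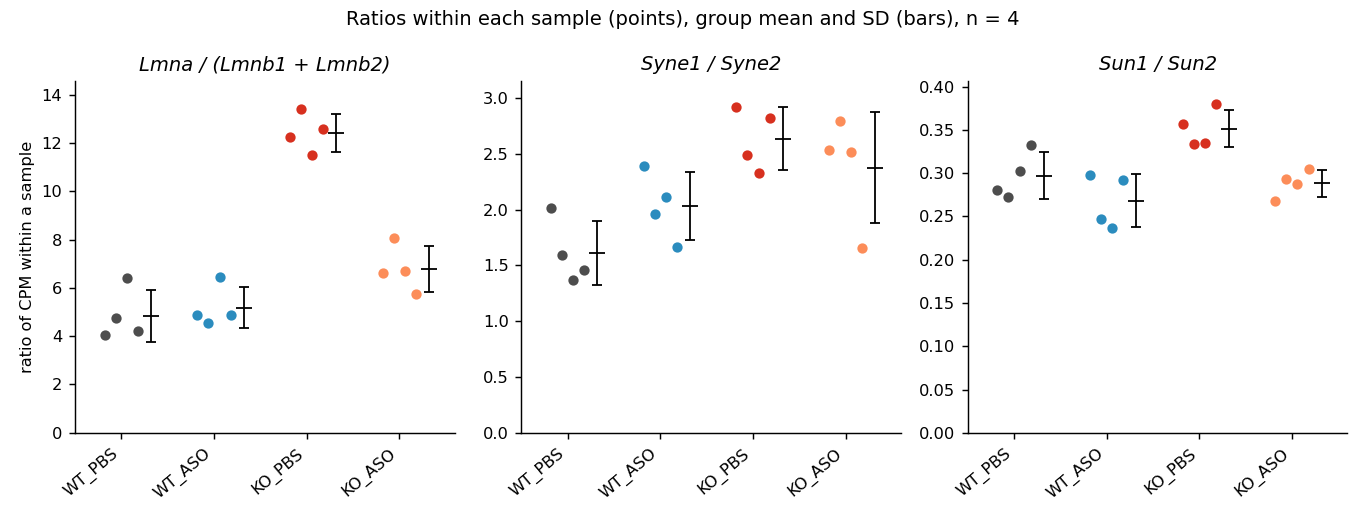
Ratios of CPM within each of the 16 samples (points), with group mean and SD (bars, n = 4), for Lmna over the summed B-type lamins, Syne1 over Syne2, and Sun1 over Sun2. Vertical axes start at 0 and are not per kilobase. The lamin ratio is 11.5 to 13.4 in KO_PBS and 4.04 to 6.40 in WT_PBS.

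Markers of other cells and of immature fibres moved in the same comparisons as Lmna. In bulk tissue, more cells of a type and more RNA per cell cannot be told apart. Of 9 macrophage markers, all 9 were called higher for KO_PBS vs WT_PBS, and 7 were called lower for KO_ASO vs KO_PBS, where the log2FC of the 9 ran from -2.63 to -1.01. Their summed level ran from 47.7 to 77.1 CPM in WT_PBS, 125 to 373 CPM in KO_PBS and 51.2 to 80.4 CPM in KO_ASO. Of 6 genes of immature or regenerating fibres, 5 were called higher in KO_PBS and 3 called lower in KO_ASO, with sums from 43.1 to 48.9 CPM in WT_PBS, 124 to 191 CPM in KO_PBS and 61.1 to 88.0 CPM in KO_ASO. Of 7 fibroblast markers, 3 were called higher in KO_PBS and 1 called lower in KO_ASO, though the log2FC of all 7 lay above 0 in the first comparison (0.39 to 0.95) and below 0 in the second (-1.04 to -0.57), with sums from 1052 to 1387, 1327 to 2324 and 541 to 1842 CPM in WT_PBS, KO_PBS and KO_ASO. In WT_ASO the summed levels ran from 49.8 to 109.5 CPM (macrophage), 43.2 to 58.8 CPM (immature fibre) and 447 to 1980 CPM (fibroblast). No marker of these 3 lists was at 0 in any sample, and their part in the Lmna level was not tested.

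**Figure D3:**
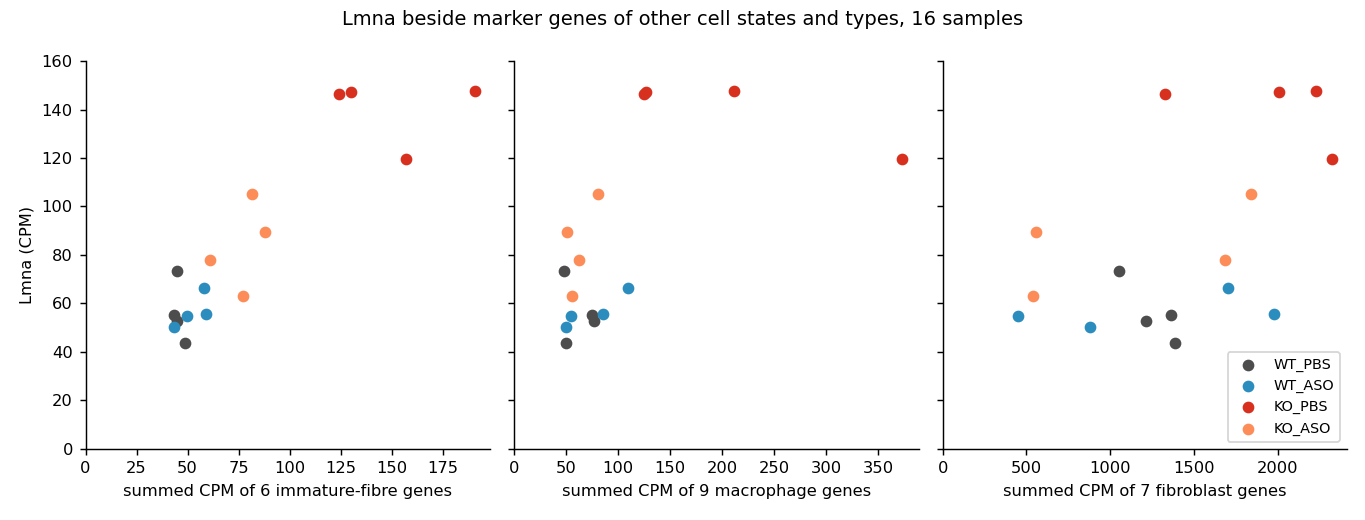
Lmna in CPM (vertical axis) against the summed CPM of 6 genes of immature or regenerating fibres, 9 macrophage genes and 7 fibroblast genes (horizontal axes, linear and from 0), with 1 point for each of the 16 samples coloured by group. KO_PBS stands apart on the first 2 axes, and on the third the groups overlap.

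Syne2 (ENSMUSG00000063450, chromosome 12, 75818134 to 76110926, plus strand) codes for nesprin-2, a giant protein of the outer nuclear membrane that binds actin at one end and SUN proteins at the other. It measured 34.7, 29.6, 32.9 and 31.2 CPM in WT_PBS, 30.7, 26.0, 30.2 and 25.8 CPM in WT_ASO, 22.7, 22.4, 27.5 and 21.8 CPM in KO_PBS, and 25.4, 23.5, 26.6 and 23.9 CPM in KO_ASO. Every KO_PBS sample lay below every WT_PBS sample, while WT_ASO bridged the wild-type and knockout groups. KO_PBS differed from WT_PBS by a log2FC of -0.44 (SE 0.09, edgeR adjusted p = 0.00408, exact permutation p = 0.0286), a mean 73.5% of WT_PBS. It was called under all 22 alternatives, at adjusted p values up to 0.0485, on library totals alone, where the log2FC was -0.29.

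KO_ASO and KO_PBS did not differ beyond their spread in Syne2, with a log2FC of 0.07 (SE 0.09, interval of 2 SE from -0.10 to 0.25, edgeR adjusted p = 0.741). Against WT_PBS, KO_ASO stood at -0.37 (SE 0.09), which edgeR did not call (adjusted p = 0.220) and DESeq2 did (adjusted p = 0.0272). In wild-type mice the oligonucleotide gave -0.19 (SE 0.09, edgeR adjusted p = 0.773), with an unadjusted p of 0.0499, and the interaction was 0.26 (SE 0.13, edgeR adjusted p = 0.402). Of 4 satellite cell markers 3 were called lower in KO_PBS than in WT_PBS, and their summed level was 26.7 ± 2.18 CPM in WT_PBS and 23.6 ± 1.52 CPM in KO_PBS (SD, n = 4). The summed level of the 8 markers of mature muscle fibres ran from 153000 to 185800 CPM in WT_PBS and from 132400 to 138600 CPM in KO_PBS, without overlap, and 1 of the 8 was called lower. Of 4 smooth muscle markers 2 were called lower, and of 6 endothelial and 5 Schwann cell markers none was called by edgeR. The part of these cells and of the fibre markers in the Syne2 level was not tested.

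Syne1 (ENSMUSG00000096054, chromosome 10, 5020917 to 5551482, minus strand) codes for nesprin-1, the other giant nesprin of muscle, which recruits kinesin-1 and microtubule organisers to the nuclear surface. It measured 69.9, 47.4, 45.0 and 45.5 CPM in WT_PBS, 73.6, 51.0, 63.9 and 43.0 CPM in WT_ASO, 66.3, 55.8, 63.9 and 61.7 CPM in KO_PBS, and 64.6, 65.6, 67.2 and 39.7 CPM in KO_ASO. Single samples stood apart in WT_PBS, where replicate 1 was high, and in KO_ASO, where replicate 4 was low, and all groups overlapped. Between KO_PBS and WT_PBS its log2FC came to 0.25 (SE 0.19, interval of 2 SE from -0.12 to 0.63, edgeR adjusted p = 0.415). Without WT_PBS replicate 1 it was 0.43 (edgeR adjusted p = 0.139), and on library totals alone 0.40 (0.169). The short and long isoforms of Syne1, which differ in the ends they carry, are summed in these counts.

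The ratio of Syne1 to Syne2 within a sample was 2.01, 1.60, 1.37 and 1.46 in WT_PBS, 2.39, 1.96, 2.11 and 1.66 in WT_ASO, 2.92, 2.49, 2.32 and 2.82 in KO_PBS, and 2.54, 2.79, 2.52 and 1.66 in KO_ASO. All KO_PBS samples lay above all WT_PBS samples, and the KO_ASO sample at 1.66 was the one with low Syne1. KO_PBS differed from WT_PBS by 0.72 on the log2 scale (exact permutation p = 0.0286, adjusted over 9 tests 0.0514) and KO_ASO from KO_PBS by -0.17 (exact permutation p = 0.514).

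Sun2 (ENSMUSG00000042524, chromosome 15, 79724070 to 79742536, minus strand) and Sun1 (ENSMUSG00000036817, chromosome 5, 139200637 to 139249840, plus strand) code for the 2 SUN proteins of somatic cells, which cross the inner membrane. Sun2 measured 220.3, 222.5, 210.4 and 189.2 CPM in WT_PBS, 212.7, 277.2, 266.9 and 207.0 CPM in WT_ASO, 159.3, 182.6, 179.6 and 172.4 CPM in KO_PBS, and 208.2, 184.6, 201.3 and 182.0 CPM in KO_ASO. The KO_PBS samples lay below all wild-type samples, but the call depended on the tool. KO_PBS and WT_PBS were -0.28 apart on the log2 scale (SE 0.10, exact permutation p = 0.0286), which edgeR did not call (adjusted p = 0.0745) and DESeq2 did (adjusted p = 0.0461), as did edgeR with the replicate number as a block (0.0485). Without scaling beyond library totals it was -0.13 (edgeR adjusted p = 0.321). KO_ASO vs KO_PBS gave 0.16 (SE 0.10, edgeR adjusted p = 0.437).

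Sun1 varied little. It ran from 60.6 to 63.6 CPM in WT_PBS, 60.5 to 68.3 CPM in WT_ASO, 56.9 to 65.5 CPM in KO_PBS and 54.1 to 57.7 CPM in KO_ASO. By its mean, KO_ASO lay below both wild-type groups, with a log2FC of -0.16 against WT_PBS (SE 0.06, edgeR adjusted p = 0.536) and -0.20 against WT_ASO (SE 0.06, edgeR adjusted p = 0.175). The difference from WT_ASO was called by DESeq2 (adjusted p = 0.0321). By edgeR none of the 8 genes was called in KO_ASO vs WT_PBS, where 0.0401% of all genes were, or in KO_ASO vs WT_ASO, where 0.0735% were. An unadjusted p under 0.05 was found for 3 of the 8 in the first, Syne2, Sun1 and Lmna, where 8.22% of all genes had one, and for 3 of the 8 in the second, Sun1, Sun2 and Lmna, where 15.1% had one. DESeq2 called Syne2 in the first, among 95 genes in all, and Sun1 and Lmna (adjusted p = 0.0374) in the second, among 422.

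The ratio of Sun1 to Sun2 within a sample was 0.281, 0.272, 0.303 and 0.333 in WT_PBS, 0.298, 0.247, 0.237 and 0.292 in WT_ASO, 0.357, 0.334, 0.335 and 0.380 in KO_PBS, and 0.268, 0.293, 0.287 and 0.305 in KO_ASO. KO_PBS lay above all samples of the other groups, the nearest being WT_PBS replicate 4. The difference was 0.25 on the log2 scale for KO_PBS vs WT_PBS and -0.29 for KO_ASO vs KO_PBS, each with an exact permutation p of 0.0286 (0.0514 over 9 tests), and -0.15 for WT_ASO vs WT_PBS (exact permutation p = 0.229).

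Emd (ENSMUSG00000001964, chromosome X, 74254687 to 74261548, plus strand) codes for emerin, an inner membrane protein that binds lamin A. It was the steadiest of the 8 genes, from 20.9 to 25.4 CPM over all 16 samples, with group means from 22.5 to 23.9 CPM. Its log2FC between KO_PBS and WT_PBS was 0.06 (SE 0.07), with an interval of 2 SE from -0.09 to 0.20, and that for KO_ASO vs KO_PBS was -0.03 (SE 0.07), from -0.18 to 0.11.

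Kif5b (ENSMUSG00000006740, chromosome 18, 6201002 to 6242174, minus strand) codes for the heavy chain of kinesin-1, the motor that spreads nuclei along the fibre, and Map7 (ENSMUSG00000019996, chromosome 10, 20148471 to 20281590, plus strand) for the microtubule-binding protein that recruits it. Kif5b measured 96.0, 109.1, 69.6 and 84.3 CPM in WT_PBS, 70.0, 104.3, 98.3 and 61.8 CPM in WT_ASO, 126.4, 103.2, 93.2 and 120.3 CPM in KO_PBS, and 77.6, 78.4, 106.4 and 70.7 CPM in KO_ASO. KO_PBS had the highest mean and the groups overlapped. The log2FC was 0.30 for KO_PBS vs WT_PBS (SE 0.18, edgeR adjusted p = 0.295) and -0.41 for KO_ASO vs KO_PBS (SE 0.18, edgeR adjusted p = 0.237), and neither was called. Map7 was held by only 59 to 153 reads per sample. It ran from 2.26 to 4.17 CPM in WT_PBS and from 3.40 to 4.02 CPM in KO_PBS, with a log2FC of 0.30 and an interval of 2 SE from -0.23 to 0.84, and was not called.

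**Figure D4:**
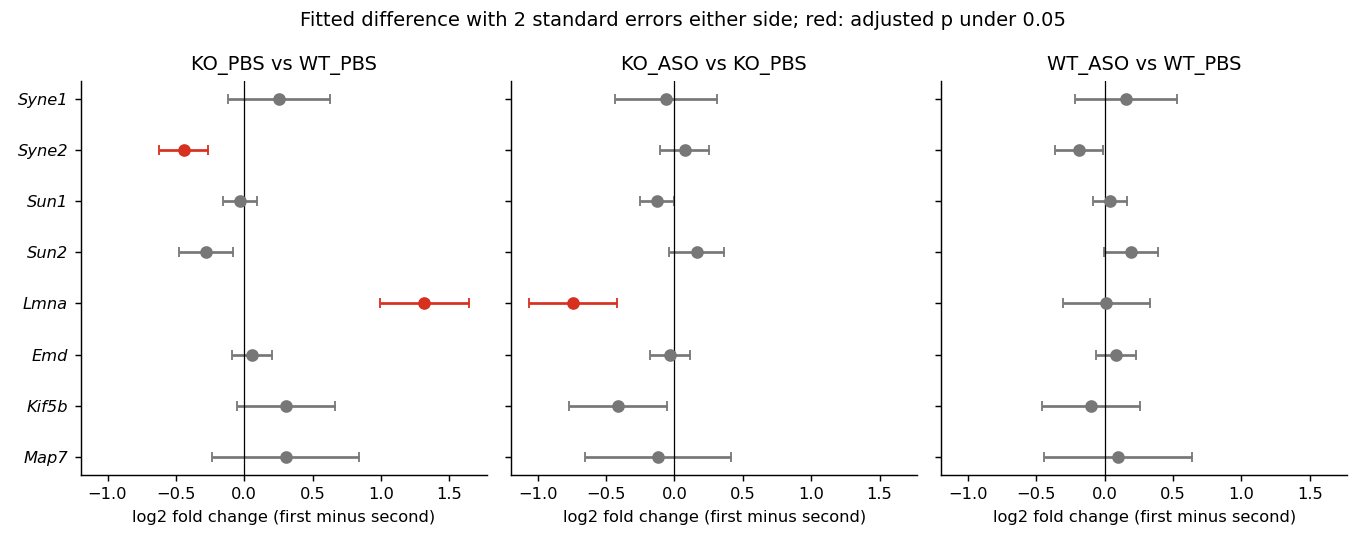
Fitted log2 fold changes of the 8 genes (points) with 2 SE on either side (bars) in 3 comparisons, on 1 shared horizontal axis, with genes called by edgeR in red. Only Lmna (1.32 and -0.74) and Syne2 (-0.44) are red, in the first 2 comparisons.

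Per kilobase of annotated exon, which allows levels of different genes to be compared, Sun2 was the most abundant of the 8, at 37.8 ± 5.87 CPM per kilobase over the 16 samples (SD). It was followed by Lmna at 14.4 ± 6.38, Kif5b at 11.5 ± 2.43, Emd at 9.21 ± 0.528 and Sun1 at 7.99 ± 0.514 CPM per kilobase (SD, n = 16). The nesprins came next, Syne1 at 1.43 ± 0.269 and Syne2 at 1.02 ± 0.148, and Map7 was last at 0.419 ± 0.112 CPM per kilobase (SD, n = 16). The place of Lmna came from the knockout groups: in WT_PBS it stood at 9.63 CPM per kilobase, below Kif5b at 11.2, and in KO_PBS at 24.0, above Kif5b at 13.9. Neighbours among Lmna, Kif5b, Emd and Sun1 had ranges over the samples that overlapped, as did Syne1 and Syne2, whereas the lowest Sun2 sample (29.4 CPM per kilobase) lay above the highest of Lmna (25.3). The exon lengths of Syne1 (40.5 kb) and Syne2 (26.7 kb) cover all annotated isoforms, so that a level made up mostly of short isoforms is understated.

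The other genes of the nuclear envelope and of nuclear positioning were examined in 6 lists, to be read against the 12.6% of all tested genes called between KO_PBS and WT_PBS (7.43% higher, 5.12% lower) and the 3.64% called between KO_ASO and KO_PBS. In the lamina and inner membrane list 5 of 17 genes were DEGs between KO_PBS and WT_PBS, 3 higher and 2 lower, with a list median log2FC of 0.09. Tmem43, which codes for the lamin- and emerin-binding protein LUMA, rose from 35.5 to 69.9 CPM (log2FC 0.98, SE 0.12, edgeR adjusted p = 5.52e-05) and was lower in KO_ASO than in KO_PBS, at 43.9 CPM (-0.67, SE 0.11, edgeR adjusted p = 0.00408). Both of these calls held under all 22 alternatives. Fhl1, a LIM-domain gene also linked to Emery-Dreifuss dystrophy, rose from 1912 to 4549 CPM (1.25, SE 0.27, edgeR adjusted p = 0.00697), and Mlip, which codes for a lamin-interacting protein of muscle, from 83.9 to 111 CPM (0.41, SE 0.10, edgeR adjusted p = 0.0108). For KO_ASO vs KO_PBS these stood at -0.54 (SE 0.27) and -0.25 (SE 0.10) and were not called.

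Lbr, the lamin B receptor, went the other way from Lmna in both comparisons. It fell from 23.0 CPM in WT_PBS to 18.4 CPM in KO_PBS (log2FC -0.32, SE 0.09, edgeR adjusted p = 0.0278) and stood at 23.7 CPM in KO_ASO, higher than in KO_PBS (0.36, SE 0.09, edgeR adjusted p = 0.0357). Both calls were weak. The first was lost without WT_PBS replicate 2 (0.0683), 3 (0.0627) or 4 (0.0575) or KO_PBS replicate 1 (0.101) or 4 (0.0820), without any scaling beyond library totals (0.290) and without the filter on low counts (0.0612). The second was lost without KO_PBS replicate 1 (0.134) or 4 (0.104) or any of the 4 KO_ASO replicates (0.0516 to 0.0853), on library totals alone (0.153), without the filter (0.0767) and in a fit of the compared groups alone (0.0979). In KO_ASO vs KO_PBS, 2 of the 17 genes of this list were called, Tmem43 and Lbr.

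None of the 6 tested genes in the list of other LINC complex genes was called by edgeR in any comparison. In the nuclear pore list 3 of 24 genes were called between KO_PBS and WT_PBS, 1 higher and 2 lower, a share close to the 12.6% of all genes, with a median log2FC of -0.09, and none in KO_ASO vs KO_PBS. Nup210, a membrane-spanning pore protein that is induced as muscle cells differentiate, fell from 66.6 to 39.9 CPM (-0.74, SE 0.15, edgeR adjusted p = 0.00499), a call kept under all 22 alternatives. Nup85 (-0.23, SE 0.06) and Nup93 (0.30, SE 0.09) were near the threshold. The call of Nup85 was lost without WT_PBS replicate 1 or 4 or KO_PBS replicate 1, 3 or 4 (edgeR adjusted p from 0.0621 to 0.0788), without the filter (0.151), in the compared groups alone (0.0558) and on library totals alone, where the log2FC was -0.08 (0.496). The call of Nup93 was lost without any WT_PBS replicate, KO_PBS replicate 1, 2 or 3 or KO_ASO replicate 3 (0.0501 to 0.132), without the filter (0.108) and in the compared groups alone (0.0673).

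Of the 17 motor and adaptor genes tested, 3 were called between KO_PBS and WT_PBS. Klc1, a light chain of kinesin-1, rose from 59.1 to 75.1 CPM (log2FC 0.35, SE 0.10, edgeR adjusted p = 0.0384) and was lower in KO_ASO, at 56.5 CPM (-0.41, SE 0.10, edgeR adjusted p = 0.0389). Kif5c, a heavy chain known mainly from neurons, rose from 0.688 to 1.5 CPM (1.14, SE 0.29, edgeR adjusted p = 0.0183), and Kif1c, a motor of another kinesin family, fell from 1215 to 885 CPM (-0.46, SE 0.12, edgeR adjusted p = 0.0196). Few reads held Kif5c, 19 to 27 per sample in WT_PBS and 44 to 86 in KO_PBS. The first call of Klc1 was lost without WT_PBS replicate 1, 2 or 4 or KO_PBS replicate 1, 2 or 3 (0.0603 to 0.138) and without the filter (0.0504). The second was lost without WT_PBS replicate 1 or 2, KO_PBS replicate 1, 2 or 3 or KO_ASO replicate 1, 2 or 3 (0.0502 to 0.136) and in the compared groups alone (0.0538). That of Kif5c was lost without WT_PBS replicate 3 or 4 or KO_PBS replicate 3 (0.0572 to 0.0618), and that of Kif1c without WT_PBS replicate 3 (0.0559) or KO_PBS replicate 1 (0.0769) and on library totals alone (0.0666).

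Of 20 genes for microtubule-associated proteins and microtubule organisers of the nuclear envelope, 1 was called between KO_PBS and WT_PBS and none in KO_ASO vs KO_PBS. It was Akap6, whose product binds nesprin-1 and anchors the microtubule organiser at the nuclear surface. Akap6 rose from 53.6 to 75.7 CPM (0.50, SE 0.12, edgeR adjusted p = 0.0128), under all 22 alternatives. Of 11 genes of the actin machinery that moves nuclei to the fibre edge, 1 was called, Arpc2, a subunit of the Arp2/3 complex, at 55.3 CPM in WT_PBS and 66.9 CPM in KO_PBS (0.28, SE 0.07, edgeR adjusted p = 0.0145). This call was lost without WT_PBS replicate 2 (0.0534) or KO_PBS replicate 1 (0.0587) and without the filter (0.0621). The median log2FC of these lists was -0.06 and 0.01.

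**Figure D5:**
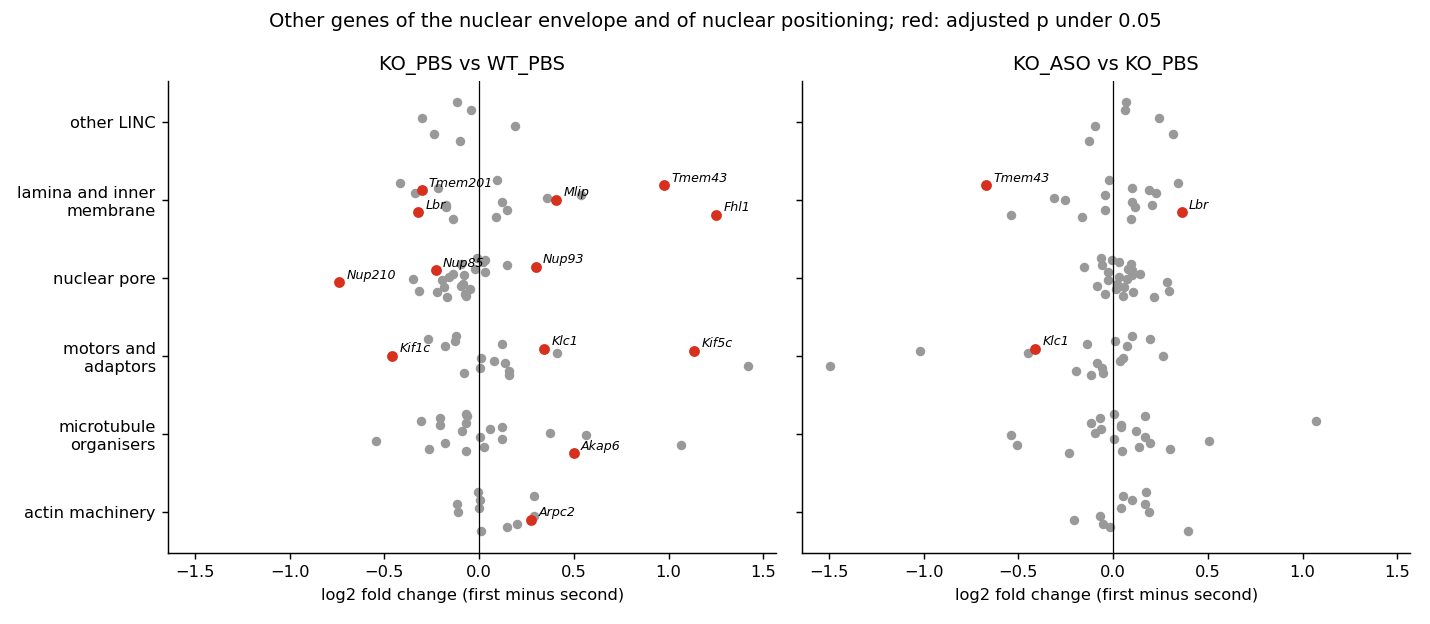
Log2 fold change (horizontal axes) of every tested gene in the 6 lists (rows, 1 point per gene, spread vertically for display) for KO_PBS vs WT_PBS and KO_ASO vs KO_PBS, with genes called by edgeR in red and named. Tmem43 is red on opposite sides in the 2 panels, at 0.98 and -0.67.

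The genes whose levels followed Lmna most closely were found by the root mean square difference of log2 CPM, centred on each gene's mean over the 16 samples. They were Gas2l1 (0.20), Gpx1 (0.21) and Gprc5b (0.21), where Lmna itself had an SD of 0.58 on that scale. All 3 were called between KO_PBS and WT_PBS. Between KO_ASO and KO_PBS, Gprc5b was called (edgeR adjusted p = 0.00234), and Gas2l1 (0.196) and Gpx1 (0.142) were not. Gprc5b measured 26.0 ± 3.29 CPM in WT_PBS, 50.9 ± 3.39 CPM in KO_PBS and 33.2 ± 1.86 CPM in KO_ASO (SD, n = 4). Nearest to Syne2, with an SD of 0.20, were Akr1b10 (0.090), Depdc5 (0.10) and Kat6b (0.10). Akr1b10 measured 61.3 ± 5.15 CPM in WT_PBS, 50.4 ± 7.43 CPM in KO_PBS and 53.1 ± 2.13 CPM in KO_ASO (SD, n = 4). It was not called between KO_PBS and WT_PBS (edgeR adjusted p = 0.0700).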

How the data were processed

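Raw counts of reads, 1 row per Ensembl gene and 1 column per sample, were deposited. HTSeq 0.6.1p1, STAR 2.5.3a, Bowtie2 2.2.8, cutadapt 1.10 and GRCm38 stand in the submitters' processing notes, with no role for each. Annotation release and strand setting were not given in the sources used here. Symbols, coordinates and exon lengths came from GENCODE M21, which matched all 29730 identifiers.

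Genes were filtered with filterByExpr, scaled with TMM factors and fitted with a robust quasi-likelihood model in edgeR 4.0.16 (R 4.3.3), with 1 mean per group over all 16 samples. All results given here come from the deposited counts, and the procedure was also run on simulated counts. P values were adjusted by Benjamini-Hochberg over 14960 genes. SE is the size of log2FC over the square root of F. Without scaling beyond totals, the median of all genes was 0.14 higher in KO_PBS than in WT_PBS and 0.11 higher in KO_ASO than in WT_ASO. Ratios used log2 CPM with a prior count of 2. Alternatives were DESeq2 1.42.0, other scaling, no filter, compared groups alone, a replicate block and leaving out each sample. No 2 libraries of a group agreed within sampling noise (lowest chi-square per gene 22.3).

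The genes and lists were chosen with earlier results of these data known. Named were the 8 genes, Bin1, Dnm2, per list up to 4 DEGs with the smallest P (3 for KO_ASO vs KO_PBS and the interaction), and the 3 genes nearest to each called member. Sun5 and Nup58 had no row by symbol. Sun3, Spag4, Ccdc155, Klc3 and Kif9 did not pass the filter.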

Additional observations from a re-analysis of the deposited data

Results flagged for a closer look

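Single samples stood apart in 4 of 44 groups examined, by a gap to the nearest sample above Dixon's limit for 4 samples, and chance gives about 1 in 20. Syne1 measured 69.9 CPM in WT_PBS replicate 1, against 45.0 to 47.4 CPM in the others, and 39.7 CPM in KO_ASO replicate 4, against 64.6 to 67.2 CPM. Syne2 measured 27.5 CPM in KO_PBS replicate 3, against 21.8 to 22.7 CPM. Lmna measured 119.4 CPM in KO_PBS replicate 4, against 146.4 to 147.7 CPM.

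The effect of the oligonucleotide on Tmem43 differed between genotypes by an interaction of -0.78 on the log2 scale (SE 0.16, edgeR adjusted p = 0.0425). That call was lost on leaving out any WT_PBS replicate, WT_ASO replicate 1 or 3, KO_PBS replicate 1, 2 or 4, or KO_ASO replicate 1, 2 or 3 (edgeR adjusted p from 0.0537 to 0.0912).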

How the results depend on the processing

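Of 19 differences called in the 8 genes and the listed genes named, 8 were called under every alternative and 11 were lost under at least 1, and none changed sign. Of 45 differences not called in the 8 genes, 4 were called under at least 1 alternative and 17 changed sign without being called. Differences not called in the listed genes were not followed through the alternatives. All 81 alternative values of the ratios lay within 1 SD. With DESeq2, genes called numbered 1056 for KO_ASO vs KO_PBS, 33 for WT_ASO vs WT_PBS, 95 for KO_ASO vs WT_PBS, 422 for KO_ASO vs WT_ASO and 385 for the interaction, against 544, 1, 6, 11 and 86 with edgeR, and members called numbered 1 for KO_ASO vs WT_PBS and 2 for KO_ASO vs WT_ASO against 0. In the compared groups alone, 300 genes were called for KO_ASO vs KO_PBS and 2 for KO_ASO vs WT_ASO. Without a filter 3 were called for WT_ASO vs WT_PBS, and with median-ratio scaling 6 for KO_ASO vs WT_ASO. Leaving out 1 sample gave 997 to 2137 genes called for KO_PBS vs WT_PBS, 208 to 831 for KO_ASO vs KO_PBS, 1 to 4 for WT_ASO vs WT_PBS, 4 to 11 for KO_ASO vs WT_PBS, 2 to 19 for KO_ASO vs WT_ASO and 23 to 102 for the interaction, and 0 to 1 members for KO_ASO vs KO_PBS. The causes were not tested.

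With the replicate number as a block, more genes were called in every comparison than without it. Counts were 2322 against 1878 for KO_PBS vs WT_PBS, 752 against 544 for KO_ASO vs KO_PBS, and 2 against 1 for WT_ASO vs WT_PBS. They were 8 against 6 for KO_ASO vs WT_PBS, 44 against 11 for KO_ASO vs WT_ASO, and 126 against 86 for the interaction. The replicate numbers were not taken to pair the samples: deviations of same-numbered samples correlated from -0.08 to 0.44, and in none of the 5 comparisons were all 4 pairs above 0.1 (3 of 4 in 3 comparisons, 1 of 4 in the other 2). As a hint from the data, 4 of 4 samples correlated best with their own number between WT_ASO and WT_PBS, 3 of 4 in KO_PBS vs WT_PBS and KO_ASO vs WT_ASO, and 2 of 4 in KO_ASO vs KO_PBS and KO_ASO vs WT_PBS. The block added the call of Sun2 and removed none among the 8 genes. Map7 had the fewest reads of the 8 genes, 59 to 153 per sample.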
